A study of Mus musculus with 2 samples.

Results

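The genes described here encode the proteins that make microRNAs (miRNAs) and the proteins that silence mRNAs with them. They were chosen by name and comprise 10 of the 24532 genes in the count table, namely *Drosha*, *Dgcr8*, *Ddx5*, *Ddx17*, *Xpo5*, *Dicer1*, *Tarbp2*, *Ago1*, *Ago2* and *Ago3*. All 10 had reads in both libraries and a mean above 1 TPM (a transcript level scaled for gene length and library size). Cardiac myofibroblasts, the contractile collagen-making cells of the injured heart, were isolated from C57BL/6 mice (C57BL/6J by the study's methods) 3 days after myocardial infarction. Both groups held the same cells, transfected with 12.5 nM of siRNA and cultured for 72 h. One group received a control siRNA (siCtrl) and the other an siRNA against *Vgll3* (si*Vgll3*), which encodes a cofactor of TEAD transcription factors. The cells were primary and had been depleted of CD45-positive leukocytes, and the study asked how VGLL3 acts on fibrosis-related genes, the miR-29 family among its concerns. Each group is 1 library of bulk mRNA, so no difference has a replicate check and no test of the conditions was made.

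A miRNA begins as a hairpin in a long primary transcript, often inside an intron of another gene. In the nucleus the microprocessor, made of the nuclease DROSHA and its partner DGCR8, cuts out the hairpin, with the helicases DDX5 and DDX17 helping on some of them, and exportin-5 (XPO5) carries it to the cytoplasm. There DICER1, with TARBP2, trims it to a short duplex, and an Argonaute protein keeps one strand as the guide that pairs through its seed with mRNAs. Members of the miR-29 family are known in the heart for pairing with collagen mRNAs.

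The siRNA target came first as a check of the labels. *Vgll3* had 42925 reads and 202 TPM in siCtrl against 16524 reads and 84.0 TPM in si*Vgll3*, so 41.6% of the TPM was left. In all, the count table sums to 140815237 reads for siCtrl and 125789276 for si*Vgll3*. All 8 myofibroblast markers were present, at a summed 16384 TPM for siCtrl against 13495 for si*Vgll3*. Of these, 5 had less TPM in si*Vgll3*, such as *Col1a1* at 53.5% and *Postn* at 43.0% of siCtrl. The other 3 had more, such as *Tagln* at 144% and *Acta2* at 117%. Of 8 leukocyte markers 6 had 0 reads in both libraries, among them *Ptprc*, the gene of CD45, and the list summed to 2.50 and 2.97 TPM. The 5 endothelial markers summed to 7.53 and 9.29 TPM. Of 6 cardiomyocyte markers 4 had 0 reads in both libraries, *Myh6* among them. *Tnnt2*, cardiac troponin T, gave that list its whole TPM, 60.0 for siCtrl against 10.4 for si*Vgll3*. The part of these marker differences in the values below was not tested.

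The miR-29 family is shown first, since its seed links the machinery to the study's question. The mature 3p arms are printed 5′ to 3′ from RefSeq (GRCm38.p6) with the seed, bases 2 to 8, in capitals, and all share that seed. The arms of miR-29a and miR-29b lie at chr6:31062673-31062694 and chr6:31063025-31063047, and those of miR-29b and miR-29c at chr1:195037091-195037113 and chr1:195037600-195037621.
miR-29a-3p: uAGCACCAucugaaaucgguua
miR-29b-3p: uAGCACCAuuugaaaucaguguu
miR-29c-3p: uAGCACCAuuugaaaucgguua
The rows for the hairpins *Mir29a*, *Mir29b-1*, *Mir29b-2* and *Mir29c* had 0 reads in both libraries, where a count of 0 allows up to 3 reads. Libraries from mRNA capture polyadenylated transcripts, so these rows do not measure the mature miRNAs.

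The complement of that seed, TGGTGCT, stood in the 3′ UTR of 4 of the 10 machinery genes, *Xpo5*, *Dicer1*, *Ago1* and *Ago3*, in the GENCODE vM21 transcript with the longest coding sequence. Among all genes with a mean above 1 TPM and a 3′ UTR, 1561 of 10925 (14.3%) held it, a share that was not matched for UTR length. The first match of each gene is shown with its flanks, the match in capitals, to let the surroundings of the seed match be compared.
*Xpo5*, position 1097 of the 3′ UTR: ctcctcctgccTGGTGCTtggggtctgca
*Dicer1*, position 1195 of the 3′ UTR: cattttcccgtTGGTGCTacgtttatgta
*Ago1*, position 3925 of the 3′ UTR: agaggctgggtTGGTGCTctccccttact
*Ago3*, position 5410 of the 3′ UTR: ttttttgaagaTGGTGCTgtagattttta
*Ago3* held 2 matches and the other three genes 1 each. The 3′ UTR of *Ago3* was the longest of the 10, at 12742 bases, while that of *Ago2* had 0 matches in 11064 bases. The letters are a description of these UTRs and not evidence of pairing.

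By TPM, most of the machinery genes were at nearly the same level in both libraries. Differences are given as M, the log2 ratio of si*Vgll3* TPM to siCtrl TPM, with a 95% Clopper-Pearson interval that covers counting error only. It compares the 2 libraries and not the conditions. A gene was called lower at M below −0.5 or higher at M above 0.5, with A, the log2 of the mean TPM, above 0. By that rule 1 of the 10 genes was lower (*Ddx17*) and 1 was higher (*Tarbp2*), while 11.4% of all 11754 genes with A above 0 were lower and 5.73% were higher. M was within 0.15 of 0 for 7 of the 10 genes, against 41.1% of all genes. That count was 5 with CPM or once the all-gene median was subtracted, against 40.9% and 40.7% of all genes. *Dicer1* and *Ago3* then lay outside the range of 0.15, which was not set in advance. The median M was 0.01 for the 10 genes and −0.05 for all genes, and the summed level of the 10 was 632 TPM in siCtrl and 615 in si*Vgll3*. In bulk RNA, fewer cells of a type and less RNA per cell cannot be told apart.

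**Figure D1:**
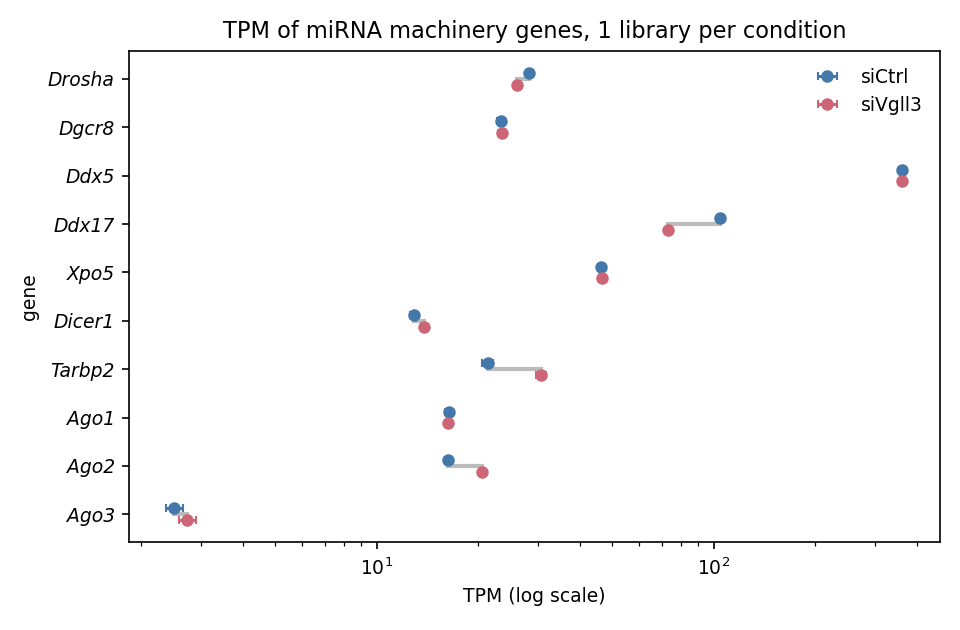
TPM (log axis) of each machinery gene in the siCtrl library (blue) and the si*Vgll3* library (red), 1 library each, with exact 95% Poisson intervals of the read count and a grey line joining the 2 values. The levels run from 2.51 TPM for *Ago3* to 361 TPM for *Ddx5* in siCtrl, and the grey line is widest for *Ddx17*, *Tarbp2* and *Ago2*.

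**Figure D2:**
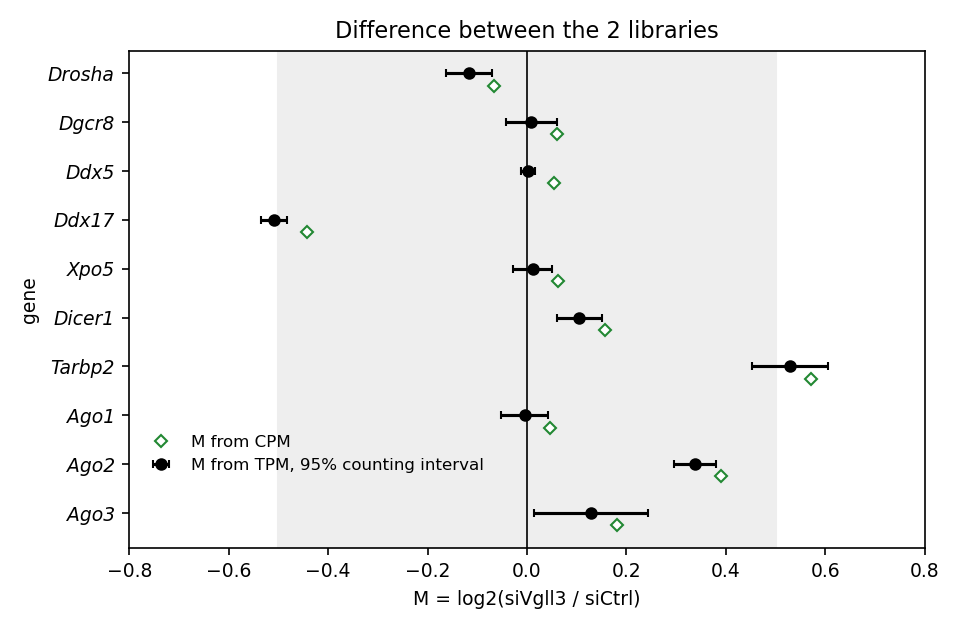
M of each machinery gene from TPM (black) with its 95% counting interval, beside M from CPM, the counts scaled for library size alone (green diamonds). The grey band spans −0.5 to 0.5. *Ddx17* and *Tarbp2* lie at its edges with intervals that reach into it, and the CPM value of *Ddx17*, −0.44, lies inside it.

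The microprocessor genes differed little. *Drosha* (Entrez 14000, chr15:12824815-12935291 on the plus strand of mm10), which encodes the nuclease, had 8250 reads and 28.3 TPM in siCtrl and 7042 reads and 26.1 TPM in si*Vgll3*. Its M was −0.12, with a counting interval from −0.16 to −0.07. *Dgcr8* (Entrez 94223, chr16:18253948-18289246, minus strand), which encodes the RNA-binding partner that recognises the hairpin, had 6296 reads and 23.3 TPM in siCtrl and 5861 reads and 23.5 TPM in si*Vgll3*. Its M was 0.01, from −0.04 to 0.06. The ratio of *Drosha* to *Dgcr8* TPM was 1.21 for siCtrl and 1.11 for si*Vgll3*. In GENCODE, the 3′ end of *Dgcr8* overlaps *Trmt2a* on the opposite strand by 825 bases and *Gm49776*, which has no row in the count table, on the same strand by 4374 bases, and the strand setting of the counting is not given in the sources used here.

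*Dgcr8* mRNA itself carries hairpins. DGCR8 is known to let the microprocessor cut its own mRNA, and the *Mir1306* hairpin of 79 bases lies in a coding exon of *Dgcr8* at chr16:18284239-18284317 on the minus strand. It is printed from RefSeq (GRCm38.p6) because it is both a miRNA precursor and part of a machinery mRNA, with its mature arms in capitals.
*Mir1306*: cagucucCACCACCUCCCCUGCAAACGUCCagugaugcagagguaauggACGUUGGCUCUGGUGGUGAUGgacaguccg
The row for *Mir1306* had 1 read in each library, too few to compare. A further hairpin of 88 bases, that of miR-3618 (*Gm24572*), lies in a UTR exon of *Dgcr8* and also had 1 read in each library.

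The paralogous helicases DDX5 and DDX17 unwind RNA and join the microprocessor on part of its substrates, and both have further roles in transcription and splicing. *Ddx5* (Entrez 13207, chr11:106780355-106789185, minus strand) was the highest of the 10 genes in both libraries, ranked 440 and 438 among all genes with a TPM. It had 81141 reads and 361 TPM in siCtrl and 75220 reads and 362 TPM in si*Vgll3*. That gave *Ddx5* an M of 0.00, from −0.01 to 0.02. The study proposes that DDX5 protein takes part when VGLL3 lowers miR-29b, a role that mRNA levels do not measure. *Ddx17* (Entrez 67040, chr15:79527736-79546741, minus strand) had 30561 reads and 104 TPM in siCtrl and 20098 reads and 73.3 TPM in si*Vgll3*. The si*Vgll3* level of *Ddx17* was 70.3% of the siCtrl level, and its M of −0.51 had an interval from −0.53 to −0.48. Among genes with A above 0, 16.7% had a larger M in either direction. As TPM, *Ddx17* was past the threshold by 0.01, and with CPM its M was −0.44, inside the threshold. The difference of *Ddx17* from *Ddx5* within each library did not depend on scaling between libraries: the ratio of *Ddx5* to *Ddx17* TPM was 3.46 for siCtrl and 4.93 for si*Vgll3*, and *Ddx17* made up 22.4% and 16.9% of their sum. No stretch of 36 bases was shared between GENCODE transcripts of *Ddx5* and *Ddx17* (0 of 7669 stretches of *Ddx17*), 36 bp being the shortest read that the authors kept. *Kdelr3*, on the opposite strand, overlaps *Ddx17* by 4 bases and had an M of −0.25.

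VGLL3 is known to bind TEAD factors, though the study found the fibrotic genes it measured unchanged after an siRNA against *Tead1*. The study proposes that TEAD1 has no part in VGLL3's fibrotic pathway. The 250 bases before each RefSeq gene start (GRCm38.p6) were searched for the core of the TEAD motif, GGAATG, on both strands. Its reverse complement is CATTCC. A window was found for 9 of the 10 genes. *Ddx5* and *Ddx17* held the letters and the other 7 did not, against 12.8% of the 8998 genes with A above 0 and a window. The *Ddx17* window, chr15:79546742-79546991 on the minus strand, is printed because *Ddx17* was the gene called lower. Its match, in capitals, begins 151 bases before the start.
*Ddx17* promoter: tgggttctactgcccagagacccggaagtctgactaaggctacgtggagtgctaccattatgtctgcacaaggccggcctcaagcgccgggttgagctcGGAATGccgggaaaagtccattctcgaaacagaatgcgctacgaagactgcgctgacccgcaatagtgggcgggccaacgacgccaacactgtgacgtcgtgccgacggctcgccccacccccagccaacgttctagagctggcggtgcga
The other gene with these letters, *Ddx5*, had an M of 0.00. A match is a run of letters and not a bound site.

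A miRNA hairpin also lies in *Ddx5*. *Mir3064* (chr11:106782693-106782759, minus strand) has 66 of its 67 bases in an intron of the longest coding transcript and its last base in the next exon. Its mature arms are printed from RefSeq with their seeds in capitals, since it had over 1 read in a library and the other hairpins inside machinery genes with a row in the count table (*Mir1306*, *Gm24572* and *Mir693*) did not. *Gm25994* in *Ddx5* and *Gm47288* in *Drosha*, which GENCODE also annotates as miRNA genes, have no row.
miR-3064-5p: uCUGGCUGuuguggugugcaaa
miR-3064-3p: uGCCACACugcaacaccuuaca
The *Mir3064* row had 102 reads for siCtrl against 62 for si*Vgll3*, which is an M of −0.61 with an interval from −1.09 to −0.14, beside 0.00 for *Ddx5*. Reads of the miRNA transcript and of *Ddx5* cannot be told apart here, so the row is uncertain. *Mir693*, in an intron of *Xpo5*, had 0 reads in both libraries.

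*Xpo5*, *Dicer1* and *Tarbp2* carry the hairpin from the nucleus to the mature duplex. *Xpo5* (Entrez 72322, chr17:46202782-46243598, plus strand), the exporter of hairpins, had 10948 reads and 46.2 TPM in siCtrl and 10213 reads and 46.6 TPM in si*Vgll3*. Its M was 0.01, from −0.03 to 0.05. *Dicer1* (Entrez 192119, chr12:104687742-104751952, minus strand), the cytoplasmic nuclease, had 8081 reads and 12.8 TPM in siCtrl and 8046 reads and 13.8 TPM in si*Vgll3*. The M of *Dicer1* was 0.11, from 0.06 to 0.15, a difference beyond counting error and well inside the threshold. For scale, the counting interval lay wholly above 0 for 32.4% of all genes and wholly below 0 for 45.8%, and for 4 and 2 of the 10 machinery genes.

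*Tarbp2* (Entrez 21357, chr15:102518192-102523676, plus strand), which encodes the double-stranded RNA-binding partner of DICER1, was the gene called higher. It had 2427 reads and 21.3 TPM in siCtrl and 3221 reads and 30.8 TPM in si*Vgll3*, where its level was 144% of that in siCtrl. M was 0.53, and its interval from 0.45 to 0.61 reached below the threshold. Among genes with A above 0, 15.6% had a larger M in either direction. *Tarbp2* moved from the 6th to the 4th place among the 10 genes by TPM, passing *Drosha* and *Dgcr8*. The ratio of *Tarbp2* to *Dicer1* TPM was 1.66 for siCtrl and 2.23 for si*Vgll3*. *Prkra*, which encodes the alternative partner of DICER1 and is named here after its values were seen, was at 34.2 TPM for siCtrl against 29.8 for si*Vgll3*. *Prkra* was therefore at 1.60 times the level of *Tarbp2* in siCtrl and at 0.970 times that level in si*Vgll3*.

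The Argonautes hold the guide strand, and AGO2 is the one that can cut a fully paired target, as an siRNA does to its mRNA. *Ago2* (Entrez 239528, chr15:73095844-73184935, minus strand) had 8346 reads and 16.3 TPM in siCtrl and 9768 reads and 20.6 TPM in si*Vgll3*. Its level in si*Vgll3* was 126% of that in siCtrl, an M of 0.34 from 0.30 to 0.38, and 29.0% of genes with A above 0 had a larger M in either direction. *Ago1* (Entrez 236511, chr4:126435012-126468583, minus strand) had 7539 reads and 16.3 TPM in siCtrl and 6955 reads and 16.3 TPM in si*Vgll3*. Its M was 0.00, from −0.05 to 0.04. *Ago1* and *Ago2* were thus level in siCtrl, where their Poisson intervals overlapped (16.0 to 16.7 TPM and 15.9 to 16.6 TPM), and apart in si*Vgll3*, where *Ago2* was at 1.26 times *Ago1*. *Ago3* (Entrez 214150, chr4:126331704-126429556, minus strand) was the lowest of the 10 genes, with 1222 reads and 2.51 TPM in siCtrl and 1237 reads and 2.74 TPM in si*Vgll3*. Its M was 0.13, with the widest interval of the 10, from 0.01 to 0.24.

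With *Ago4*, the remaining Argonaute gene, the family summed to 35.8 TPM for siCtrl against 40.2 for si*Vgll3*. *Ago2* made up 45.5% of the sum in siCtrl and 51.2% in si*Vgll3*, and *Ago1* 45.7% and 40.5%. *Ago3* gave 7.01% and 6.81% and *Ago4* 1.81% and 1.53%. The 3′ end of *Ago2* overlaps *Chrac1* on the opposite strand by 1711 bases, and *Chrac1* had an M of −0.09. Of the 36-base stretches in *Ago1* transcripts 1.88% also occur in another Argonaute gene, and 0.129% of those in *Ago2* do.

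By TPM the order in siCtrl was *Ddx5*, *Ddx17*, *Xpo5*, *Drosha*, *Dgcr8*, *Tarbp2*, *Ago1*, *Ago2*, *Dicer1* and *Ago3*. In si*Vgll3* it was *Ddx5*, *Ddx17*, *Xpo5*, *Tarbp2*, *Drosha*, *Dgcr8*, *Ago2*, *Ago1*, *Dicer1* and *Ago3*. *Ago1* and *Ago2* in siCtrl were the only neighbours whose Poisson intervals overlapped, and that interval takes no account of spread between cultures. *Ddx5* alone gave 57.1% of the summed TPM of the 10 genes for siCtrl and 58.8% for si*Vgll3*. The 4 genes with a miR-29 seed match had M of 0.01 (*Xpo5*), 0.11 (*Dicer1*), 0.00 (*Ago1*) and 0.13 (*Ago3*). Neither gene past the threshold held one, in 3′ UTRs of 2276 bases (*Ddx17*) and 334 bases (*Tarbp2*). A link between a match and M was not tested.

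**Figure D3:**
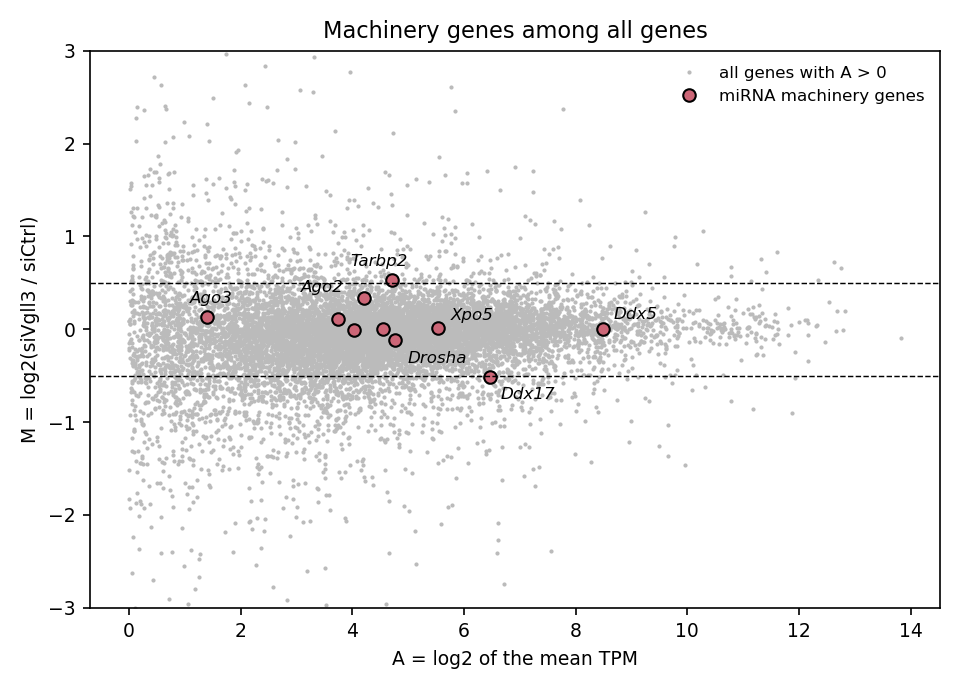
M against A for the 11754 genes with A above 0 (grey) and the 10 machinery genes (red), with dashed lines at M of −0.5 and 0.5. 17 genes lie outside the plotted range of M, −3 to 3. The machinery genes sit within the main cloud, with *Ddx17* on the lower line and *Tarbp2* on the upper one.

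Around the core machinery, 107 partner genes with A above 0 in 5 lists were counted, and 3 (2.80%) were lower and 2 (1.87%) higher, against 11.4% and 5.73% of all genes. The share of all genes was not matched for level. With A above 2, 2 of 105 partner genes were lower and 2 higher, beside 928 and 393 of 9938 genes. The median M of the 107 was −0.04, and 68 of them (63.6%) had M below 0, against 57.0% of all genes. Cofactors of the microprocessor (21 genes) had 0 lower, 1 higher and a median of −0.03. The higher one was *Tardbp*, which encodes the RNA-binding protein TDP-43, at 20.8 TPM for siCtrl against 62.3 for si*Vgll3* (M 1.58, from 1.55 to 1.62). *Tardbp* had 8771 reads for siCtrl and 26209 for si*Vgll3*, and its interval does not cover the choice of scale. The most abundant cofactors were level, with *Hnrnpa2b1* at 452 and 443 TPM and *Nono* at 374 and 377 TPM in siCtrl and si*Vgll3*. Partners of export, dicing and Argonaute loading (20 genes, median −0.07) had 1 lower and 1 higher. *Ipo8*, an importin that binds Argonautes, was at 26.1 and 15.2 TPM (M −0.78), and the chaperone *Hsp90aa1* at 453 and 668 TPM (M 0.56). The chaperones with the highest TPM of the list, *Hspa8* and *Hsp90ab1*, had M of 0.14 and −0.04.

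Downstream of the Argonautes, GW182 proteins recruit deadenylases to the silenced mRNA. The counts of these 3 lists also stand against 11.4% lower and 5.73% higher over all genes. Of 23 genes of that step (median −0.06) 1 was lower, the GW182 gene *Tnrc6c*, at 8.70 TPM in siCtrl and 5.42 in si*Vgll3* (M −0.68). The poly(A)-binding protein genes *Pabpc1* and *Pabpc4*, the most abundant of the list, had M of 0.21 and 0.19. Of 24 genes of repression, decapping and decay (median −0.05) 1 was lower, *Trim65*, at 363 reads and 1.86 TPM in siCtrl and 188 reads and 1.04 TPM in si*Vgll3* (M −0.84). *Lsm4* and *Lsm3*, which encode subunits of the LSM ring, had the highest mean TPM of both libraries there and M of 0.03 and 0.41. Of 19 genes of miRNA tailing and turnover (median 0.00) 0 were called, and the most abundant, *Rbm7* and *Xrn2*, had M of 0.06 and 0.23.

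**Figure D4:**
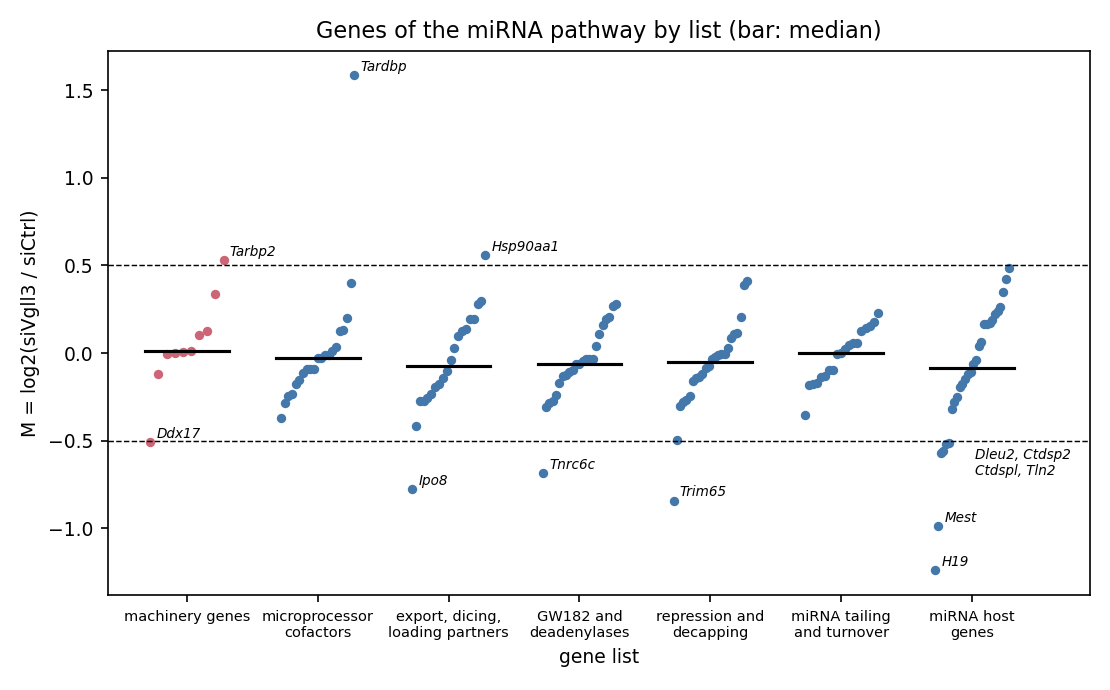
M of each gene with A above 0 in the machinery (red), the 5 partner lists and the miRNA host genes (blue), ordered by M within a list, with the median as a bar and dashed lines at −0.5 and 0.5. The medians run from −0.08 for host genes to 0.01 for the machinery, *Tardbp* stands apart at 1.58, and 6 host genes lie below −0.5 by TPM (4 with CPM, where 2 others lie above 0.5).

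The substrates of the machinery are transcripts that hold hairpins. Of 36 genes listed as hosts, 32 hold a hairpin within their span in the RefSeq table used here. Of the 36, 28 had A above 0, of which 6 (21.4%) were lower and 0 higher, against 11.4% and 5.73% of all genes, with a median M of −0.08. With CPM, 4 were lower and 2 higher, against 9.87% and 6.52% of all genes. M by CPM was −0.46 for *Tln2*, −0.45 for *Ctdsp2*, 0.54 for *Rian* and 0.52 for *Egfl7*. *H19*, an imprinted RNA that holds *Mir675*, was at 39.9 TPM in siCtrl and 16.9 in si*Vgll3* (M −1.24). *Mest*, imprinted and host of *Mir335*, was at 6.21 and 3.13 TPM (M −0.99), and *Dleu2*, host of *Mir16-1*, at 1.38 and 0.932 TPM (M −0.57, from 150 and 94 reads). The hosts of the miR-26 genes are 3 related phosphatase genes. *Ctdspl*, with *Mir26a-1*, was at 25.3 and 17.2 TPM (M −0.56), *Ctdsp2*, with *Mir26a-2*, at 96.9 and 67.7 TPM (M −0.52), and *Ctdsp1*, with *Mir26b*, at 79.4 and 65.3 TPM (M −0.28). *Tln2*, a talin gene that holds *Mir190a*, was at 28.0 and 19.6 TPM (M −0.51).

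The other host genes with A above 0 were not past the threshold by TPM. *Rian*, *Mirg* and *Meg3*, RNAs of one imprinted cluster on chromosome 12, had M of 0.49, 0.35 and 0.22. With CPM these values were 0.54, 0.40 and 0.47. *Vmp1*, host of *Mir21a*, was at 124 and 139 TPM (M 0.17), and *Dnm3os*, host of *Mir199a-2* and *Mir214*, at 1.92 and 1.77 TPM (M −0.12). *Mcm7* and *Smc4*, hosts of the *Mir25* and *Mir15b* clusters, had M of 0.19 and −0.11. The pantothenate kinase genes *Pank1*, *Pank2* and *Pank3*, hosts of *Mir107*, *Mir103-2* and *Mir103-1*, had M of −0.32, 0.16 and 0.04. M was 0.42 for *Egfl7*, 0.26 for *Evl*, 0.24 for *Zranb2*, 0.17 for *Lpp*, in which that table lists no hairpin, and 0.06 for *Rcl1*. It was −0.25 for *Mir22hg*, −0.19 for *Wwp2*, −0.18 for *Huwe1*, −0.15 for *Iars2*, −0.06 for *Copz1* and −0.04 for *Nfyc*. A host gene's reads come from its whole transcript and give no level of the miRNA in it.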

How the data were processed

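Libraries of mRNA were analysed, 1 for siCtrl and 1 for si*Vgll3*. The authors used the TruSeq Stranded mRNA LT kit and an Illumina NovaSeq instrument. They checked reads with FastQC, removed reads under 36 bp with Trimmomatic, used HISAT2 to map the rest to mm10, and took known genes and their counts from StringTie. Tool versions, the annotation release and the strand setting of counting are not given in the sources used here. The deposited read counts per gene are whole numbers with no normalization, and the authors also deposited TPM for 14158 genes. All 4 sample columns were used. M and the thresholds on M and A follow the study's MA plot. A was computed as the log2 of the mean TPM, and as the mean of the log2 values in an alternative, since its formula is not given in the sources used here. Intervals (95%) were Clopper-Pearson for the count ratio, conditional on the sum of reads, shifted onto the TPM ratio, and exact Poisson for levels. They cover counting error only, at 140815237 and 125789276 reads.

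No test was run, since each condition has 1 library. edgeR 4.0.16 (TMM) and DESeq2 1.42.0 (size factors) in R 4.3.3 were used for scaling only. Other steps used python 3.11.15 with pandas 2.3.3 and scipy 1.17.1, and the interval was tested on simulated data. Alternatives were CPM, both scalings, centred M, 0.1 or 1 TPM added, A as a mean of logs, other filters and other thresholds. Every machinery gene, the partner genes with M past 0.5 in either direction, the 2 most abundant of each partner list, the host genes with A above 0 and *Vgll3* were named, by rule. The genes and lists were chosen with earlier results of these data known. Positions and 3′ UTRs are from GENCODE vM21 (GRCm38, also called mm10), and miRNAs and promoters from RefSeq (GRCm38.p6).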

Additional observations from a re-analysis of the deposited data

Results flagged for a closer look

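*Mir155hg*, the host transcript of *Mir155*, had 30 reads in si*Vgll3* and 14 in siCtrl and has no TPM, so it entered no comparison above. It is given here because it has reads but no TPM and its counting interval lay above 0. That interval is therefore no separate support. Only an excess in si*Vgll3* was looked for, among the machinery, partner and host genes. The log2 ratio of its CPM was 1.26, with a counting interval from 0.30 to 2.29.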

How the results depend on the processing

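No paired analysis was possible because siCtrl and si*Vgll3* were sequenced as 1 library each. *Tarbp2* was past 0.5 under every alternative scale, with M from 0.51 to 0.57. *Ddx17* was not: its M was −0.44 with CPM, −0.45 with TMM, −0.45 with DESeq2's size factors and −0.46 when centred on the median of all genes, which left 0 of the 10 machinery genes lower under each of these. M from TPM minus M from CPM was −0.05 for the median gene and −0.07 for *Ddx17*. *Vgll3* had M of −1.21, −1.22, −1.23 and −1.22 under the same changes. Of the other machinery genes, the sign changed only for *Ago1*, in 4 of 6 alternatives, at values up to 0.05. With a threshold of 1, or with the whole interval required beyond 0.5, 0 of the 10 machinery genes were lower and 0 higher. With 0.25, 1 was lower and 2 were higher. Of 107 partner genes, 0 were lower and 1 higher with a threshold of 1, and 17 lower and 9 higher with 0.25. Beside these, 384 of all 11754 genes were lower and 207 higher with 1, and 3015 and 1697 with 0.25. With the whole interval required, 977 of the 11754 were lower and 442 higher. Medians of the partner lists ran from −0.08 to 0.05. Chosen after the data were seen, the same 4 changes of scale gave 4 lower host genes each and 2 higher with CPM, TMM or DESeq2's size factors and 1 when centred, and 5 or 6 machinery genes within 0.15 of 0. Under those 4 scales 9.87% to 10.1% of all genes were lower, 6.32% to 6.52% higher and 40.7% to 41.1% within 0.15 of 0. Over all genes, 1313 of 11704 were lower and 655 higher with A as the mean of log2 TPM. With no filter on A, 2103 of 14149 were lower and 1428 higher. Higher genes numbered 393 of 9938 with A above 2 and 1159 of 13492 with at least 10 reads in each library. The lowest machinery gene, *Ago3*, had 1222 reads in siCtrl. The counting intervals of *Ddx17* and *Tarbp2* reached inside the threshold, so counting error bears on both calls. The lack of replicates limits every difference.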
